A study of Caenorhabditis elegans with 2 samples.

Results

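ChIP-seq of the tagged bZIP transcription factor ZIP-4 in starved Caenorhabditis elegans larvae gave an optimal set of peaks with 1287 distinct intervals, and 196 of them, 15.2% of the peaks, are described here. These 196 near-start peaks were chosen by position among those that the authors kept for their signal and its repeatability. Each lay on an autosome, had its summit in the promoter of exactly 1 protein-coding gene, and had that summit 200 bp or less from the nearest annotated start of the gene. Promoters were taken to reach 1000 bp upstream and 200 bp downstream of each start. The 196 near-start peaks belonged to 194 genes. The other peaks comprised 257 on autosomes in a single gene's promoter but more than 200 bp from its start (the more distant peaks), 304 in promoters of several genes, 292 outside promoters and 241 on the X chromosome. The signal values and distances that selected the near-start peaks are given as a description, with no test.

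The worms were strain OP590, which carries the mutation unc-119(tm4063) and the transgene wgIs590, holding zip-4::TY1::EGFP::3xFLAG and the rescue marker unc-119(+). They were L1 larvae, 6 hours of age, of mixed sex, starved after bleaching, and the chromatin of whole worms was immunoprecipitated through the GFP tag. The samples formed 1 group with 2 biological replicates, without an untagged or fed group. All cells of the larvae were pooled, so no peak can be assigned to a tissue. The depth of the libraries is unknown, so none stands behind any value, and all intervals cover counting over peaks only. Peaks are not biological replicates, and every test describes these 2 libraries.

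ZIP-4 belongs to the basic leucine zipper family, whose members bind DNA as dimers, each basic region reading one side of a short palindrome. C/EBP-type members of the family read words such as TTGCGAAA or the palindrome TTGCGCAA. In C. elegans many mature mRNAs begin with a spliced leader joined a short way upstream of the coding sequence, so an annotated gene start is often a splice acceptor site and the site where transcription begins can lie farther upstream.

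Windows of 10 near-start peaks with TTGCGAAA are shown first, because this word was the more frequent of the full C/EBP matches at the summits. They were taken in order of signal on chromosomes II to V where the window held the whole word and overlapped no annotated UTR, so stronger peaks such as those of F56D2.5, scc-2 and lgg-1 are not among them. Each window is 61 bases of ce11 (WBcel235, RefSeq) centred on the summit, read 5′ to 3′ on the strand of the gene. Capitals mark the word, which is written TTTCGCAA where it lies on the other strand.
xbp-1 (chrIII:4193722-4193782, plus strand): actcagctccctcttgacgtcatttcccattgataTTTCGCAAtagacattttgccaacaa
abhd-5.2 (chrV:4844770-4844830, plus strand): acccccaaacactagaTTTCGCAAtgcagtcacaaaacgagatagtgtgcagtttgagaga
frm-10 (chrV:13463120-13463180, plus strand): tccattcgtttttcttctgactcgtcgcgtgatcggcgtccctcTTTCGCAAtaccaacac
unc-116 (chrIII:8355232-8355292, minus strand): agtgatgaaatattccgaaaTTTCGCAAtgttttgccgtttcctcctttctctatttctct
F17C11.11 (chrV:10938853-10938913, minus strand): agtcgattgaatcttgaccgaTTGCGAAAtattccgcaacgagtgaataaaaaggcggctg
F53B2.8 (chrIV:12527456-12527516, minus strand): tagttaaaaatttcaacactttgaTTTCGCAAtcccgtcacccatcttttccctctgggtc
arp-1 (chrII:15120149-15120209, plus strand): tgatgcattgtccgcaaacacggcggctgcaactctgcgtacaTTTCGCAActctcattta
istr-1 (chrV:12697665-12697725, plus strand): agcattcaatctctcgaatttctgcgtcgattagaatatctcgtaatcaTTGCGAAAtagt
zyg-9 (chrII:8457597-8457657, plus strand): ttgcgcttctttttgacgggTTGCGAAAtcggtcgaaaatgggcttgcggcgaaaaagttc
nhr-117 (chrV:1621678-1621738, minus strand): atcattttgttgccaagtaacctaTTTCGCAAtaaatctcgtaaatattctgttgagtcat
In most of these windows the word, read on its own strand, had an A before it and a T after it. Windows of 5 peaks without any C/EBP word follow, taken by the same rule. They are shown because several of the strongest near-start peaks were of this kind. Capitals mark the summit base, except in cdc-48.1, where they mark the CREB-type core TGACGT on the other strand.
tos-1 (chrV:9344271-9344331, minus strand): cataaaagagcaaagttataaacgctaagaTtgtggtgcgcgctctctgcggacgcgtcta
cdc-48.1 (chrII:10563543-10563603, minus strand): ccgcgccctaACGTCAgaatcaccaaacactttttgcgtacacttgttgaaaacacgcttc
lin-9 (chrIII:8904254-8904314, minus strand): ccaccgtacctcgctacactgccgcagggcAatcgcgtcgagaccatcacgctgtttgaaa
Y39E4B.6 (chrIII:13070665-13070725, plus strand): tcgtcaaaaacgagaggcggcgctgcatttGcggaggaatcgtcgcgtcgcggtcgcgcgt
his-37 (chrV:9546998-9547058, plus strand): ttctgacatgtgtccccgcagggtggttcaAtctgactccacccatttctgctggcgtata

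The strongest near-start peaks lay at genes of varied function. The first was at xbp-1, whose bZIP product drives transcription when unfolded proteins fill the endoplasmic reticulum. At chrIII:4193574-4193929 the signal value was 1319.5 in the pooled reads, 918 in replicate 1 and 409 in replicate 2, and the summit lay at -57 bp. It ranked 7, 8 and 9 in the 3 lists and was the only near-start peak among the 20 strongest of all peaks. Its window held TTGCGAAA as well as TGACGT. The peak of cdc-48.1, which encodes a p97-type AAA ATPase that extracts ubiquitinated proteins, lay at -166 bp. It had a value of 640 in the pooled reads, 437 in replicate 1 and 207 in replicate 2, and it held TGACGT but no C/EBP word. The peak of tos-1, a gene known as a target of alternative splicing, had a value of 751 in the pooled reads, 468 in replicate 1 and 283 in replicate 2. It held no C/EBP word, but an E-box CACGTG lay within 50 bp of its summit.

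Peaks of comparable strength lay downstream of a start. That of abhd-5.2, an alpha/beta hydrolase gene, stood at 115 bp in coding sequence (chrV:4844678-4844927), with a signal value of 676 in the pooled reads, 444 in replicate 1 and 227 in replicate 2. That of T28F4.5 stood at 169 bp in a 5′ UTR and inside the body of T28F4.4, with a signal value of 654 in the pooled reads, 443 in replicate 1 and 218 in replicate 2. The peak of tba-2, an alpha-tubulin gene, stood at 190 bp in an intron, with a signal value of 517 in the pooled reads, 352 in replicate 1 and 156 in replicate 2. The gene had another near-start peak at -11 bp, with a pooled signal value of 321. All 4 downstream peaks among the 20 strongest, the last being F56D2.5, held TTGCGAAA.

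The other strong upstream peaks are given with their signal values. That of frm-10, a FERM-domain gene, had a signal value of 634, with 438 in replicate 1 and 198 in replicate 2. That of ints-4, which encodes a subunit of the Integrator complex that cleaves nascent snRNA, stood at -1 bp with a signal value of 602, 377 and 233 in the pooled reads, replicate 1 and replicate 2. The peak of lin-9, a subunit of the DREAM repressor complex, had a signal value of 454, and that of unc-116, the kinesin heavy chain, had 404. Those of rpl-24.2 and Y39E4B.6 had 412 and 409. The histone H4 gene his-37 had a signal value of 401 at -77 bp. The remaining peaks of the 20 strongest were at cmtr-1 (an mRNA cap methyltransferase), ntl-11 (a CCR4-NOT subunit), T07F10.3, F48A11.4, mrpl-28 (a mitochondrial ribosomal protein) and agef-1 (an Arf guanine nucleotide exchange factor), with signal values from 381 down to 322.

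**Figure D1:**
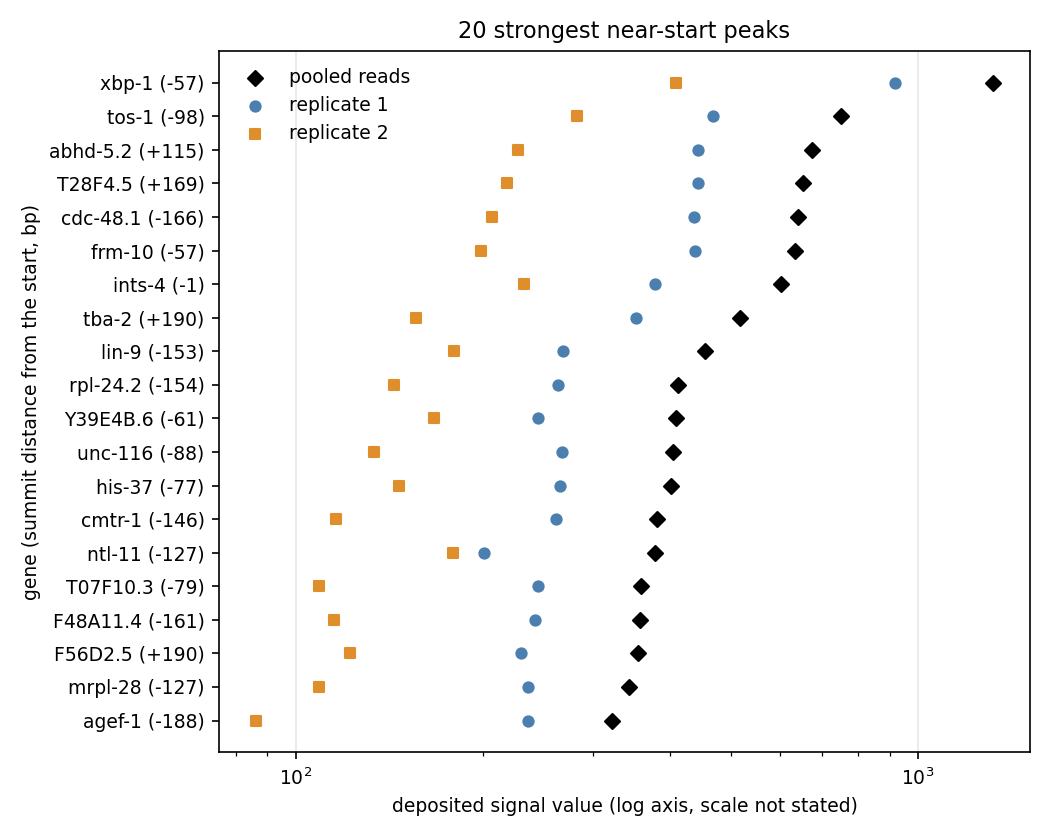
Deposited signal value (log axis) of the 20 strongest near-start peaks in the pooled reads (diamonds), replicate 1 (circles) and replicate 2 (squares), with the summit's distance from the start in bp in brackets. Replicate 2 lay below replicate 1 at each of the 20 genes, from 409 against 918 at xbp-1 to 86.3 against 236 at agef-1.

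All 20 of these peaks were also among the strongest regions of each replicate, taking as many regions as the optimal set holds, and 7 of the 20 held TTGCGAAA. Signal values are on a scale that the sources do not state, and the replicates were not placed on a common scale here. Of the 188 near-start peaks found in both replicates, by summits no more than 100 bp away, 184 had the higher value in replicate 1, with a median ratio of replicate 1 to replicate 2 of 1.88. Over all near-start peaks the pooled signal value had a median of 127 and quartiles of 92.6 and 197. The median was 146 for the more distant peaks and 155 for those in promoters of several genes. The near-start peaks included 10 of the 100 strongest of all peaks, and the weakest stood at 80.05, beside 79.97 for the weakest of the whole optimal set.

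Near-start summits were mostly upstream of the annotated start. The median distance was -91.5 bp, with quartiles of -149 and -23.5 bp, and 166 of the 196 lay upstream and 30 downstream. Per 50 bp, counts were 48, 46, 33 and 39 from -200 bp up to the start and 13, 6, 3 and 8 beyond it. The weaker candidate regions of the pooled list, which share no base with a peak and meet the same position rule, did not show this asymmetry. There were 2356 of them, and their counts per 50 bp ran from 260 to 345 with a median distance of 11 bp. The share of candidates that were kept as peaks was 15.2% and 15.03% in the bins farthest upstream, 11.2% in each of the next bins up to the start, and at most 3.63% in any downstream bin. Between absolute distance from the start, whichever the side, and pooled signal, Spearman's rho was -0.05 across the 196 peaks, a description over peaks of the same libraries.

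**Figure D2:**
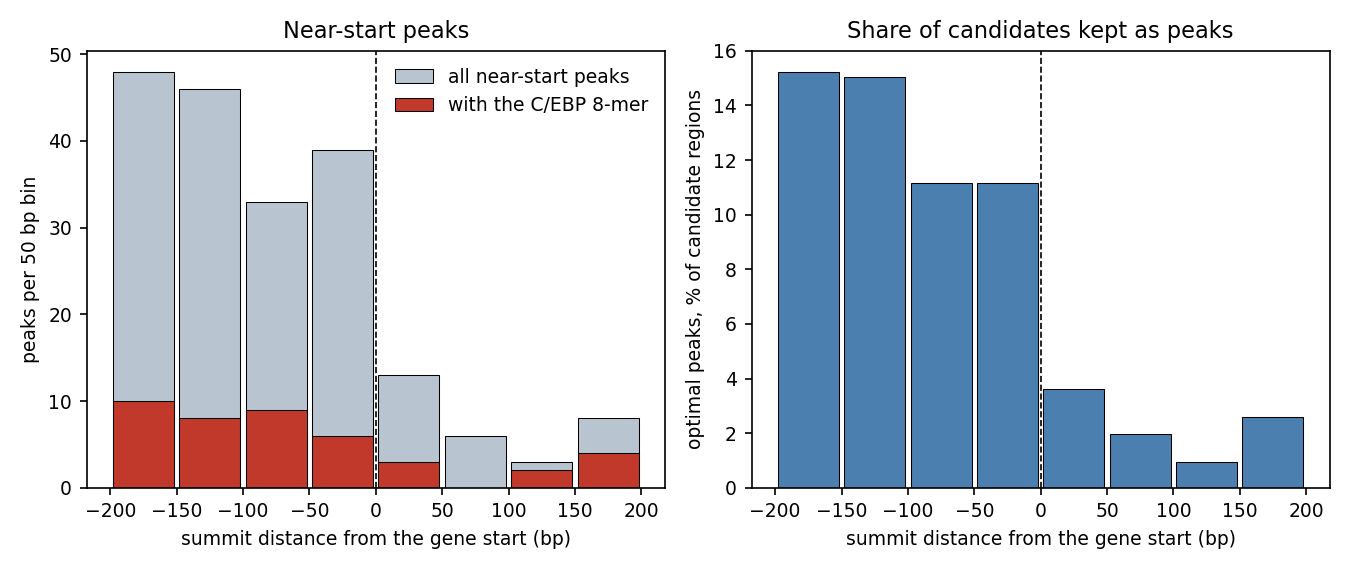
Left, number of near-start peaks per 50 bp of summit distance from the gene start, with those holding the C/EBP word TTGCGAAA in red; right, peaks as a percentage of all candidate regions in the same bin. The peaks fell from 39 just upstream of the start to 13 just downstream, and the share of candidates kept from 11.2% to 3.63%.

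By annotation, 136 summits (69.4%) lay in intergenic sequence, 27 in introns, 20 in 5′ UTRs, 9 in coding sequence and 4 in 3′ UTRs. Of the 30 downstream summits, 18 lay in 5′ UTRs, 8 in coding sequence and 4 in introns. In 10 cases the summit lay inside another gene, as at rpl-24.2, whose peak stood in an intron of C03D6.1. The annotated start was close to the coding sequence, with a median distance of 34 bp, and the summit lay a median of 157 bp upstream of the first coding base. The acceptor-type word TTTCAG lay within 12 bases upstream of a start codon in 56 of the 194 genes (28.9%), beside 72 of the 243 genes with a more distant peak (29.6%) and 3050 of all 17242 autosomal protein-coding genes (17.7%). Chromosome V held 46 near-start peaks, II held 44, I held 41, III held 37 and IV held 28. For 22 near-start peaks, the gene held more than 1 peak in its promoters, taken over all its starts, as at tos-1, lin-9, lgg-1 and cox-5B.

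The position limit cut through a continuous range. Just inside it were the peaks of Y50D4C.5 at -200 bp, rad-54.L2 at -199 bp and Y75B12B.11 at -199 bp, with pooled signal values of 88.0, 113 and 102. Just outside were those of C33D9.13, downstream of its start, and of pqn-70 and Y32B12B.2, both at -202 bp, with 139, 97.5 and 83.4.

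The word TTGCGAAA lay within 50 bp of the summit, on either strand, in 42 of the 196 near-start peaks (21.4%, 95% Clopper-Pearson interval 15.9 to 27.8%), against 16.8% of all optimal peaks. It was present in 40 of the 2356 weaker near-start candidates (1.70%) and in 1.34% of windows of the same length centred 100 bp upstream of all autosomal protein-coding genes. TTGCGAAA was already known from earlier results of these data, so these contrasts describe the peaks and are no independent evidence for the word. The share in the more distant peaks was 39 of 257 (15.2%). The odds ratio of near-start to these peaks was 1.52 (0.914 to 2.54), and the difference did not pass Fisher's exact test (two-sided, adjusted p = 0.322 over 9 features). The interval includes both no difference and a more than 2-fold higher odds near the start. The broader word, TTACNNAA or TTGCNNAA, of which TTGCGAAA is one form, was in 58 near-start peaks (29.6%), against 26.5% of all peaks, 15.7% of the weaker candidates and 16.99% of the promoter windows. Its odds ratio was 1.12 (0.727 to 1.73, adjusted p = 1, Fisher's exact test), and its direction turned under some settings given in the closing section. The full palindrome TTGCGCAA was in 2 near-start peaks (1.02%) and in 3 of those farther away, against 1.16% of all peaks.

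TTGCGAAA was most frequent in the stronger near-start peaks. Ordered by signal and divided into 4 sets of 49, the peaks held it in 14, 12, 12 and 4 cases. The median pooled signal value was 156 with the word and 117 without it, and the ranges overlapped, from 80.5 to 1319.5 and from 80.1 to 751. The middle of the word lay a median of 15.5 bp from the summit, and within 20 bp in 25 of the 42 peaks. Relative to the gene start its median position was -90 bp, and 33 of 42 lay upstream. It was held by 33 of the 166 upstream peaks (19.9%) and 9 of the 30 downstream peaks (30%). Read towards the gene it lay on the gene's strand in 15 of 42 (35.7%, 21.55 to 51.97%), beside 23 of 39 (59.0%) in the peaks farther away. This difference in strand was not tested.

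The bases beside the word, counted after the sequences had been seen, were also uneven. T followed TTGCGAAA in 34 of 42 near-start peaks (81.0%, 65.9 to 91.4%) and in 33 of 39 peaks farther away (84.6%), but in 16 of the 40 weaker near-start candidates that held the word (40.0%, 24.9 to 56.7%). A preceded it in 28 of 42 near-start peaks, G in 11, C in 3 and T in none. Both A before and T after were present in 23 of 42 (54.8%), 29 of 39 (74.4%) and 7 of 40 (17.5%) in the same order of sets. No test was made of these counts.

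**Figure D3:**
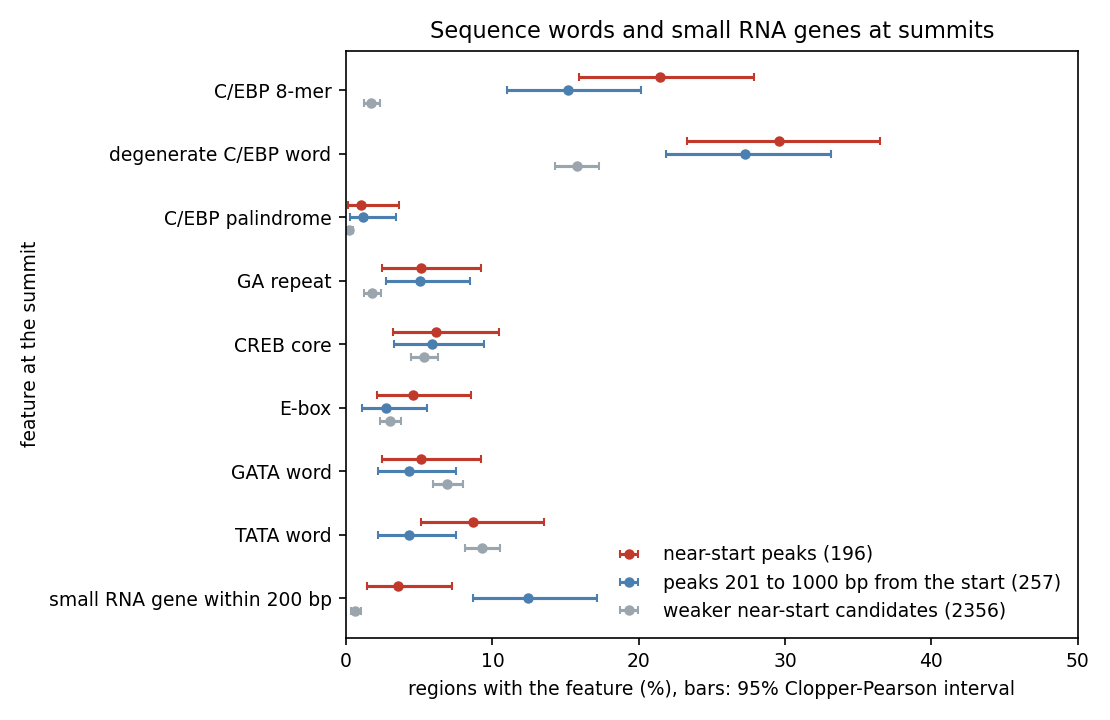
Share of regions with each sequence word within 50 bp of the summit, or a small RNA gene within 200 bp, in near-start peaks (red), more distant single-gene peaks (blue) and weaker near-start candidates (grey); bars are 95% Clopper-Pearson intervals. The C/EBP 8-mer TTGCGAAA stood at 21.4%, 15.2% and 1.70%, and the small RNA genes at 3.57%, 12.5% and 0.594%.

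Other words showed no difference from the more distant peaks that passed the test. The repeat GAGAGAGA, at the summits of genes such as vps-25 and atfs-1, was in 10 near-start peaks (5.10%), against 5.19% of all peaks, and in 13 of those farther away (5.06%). It was in 1.74% of the weaker near-start candidates and 1.51% of the promoter windows, a description only, as this repeat too was known from earlier results. Its odds ratio was 1.01 (0.387 to 2.55, adjusted p = 1, Fisher's exact test), and it ran from 0.489 to 2.72 with the settings, 1.67 without replicate 1. The E-box CACGTG was in 9 near-start peaks and 7 of those farther away (odds ratio 1.72, 0.558 to 5.53, adjusted p = 0.705, Fisher's exact test). Its shares were 4.59% and 2.72%, against 3.49% of all peaks. TATAAA was in 17 (8.67%) and 11 (4.28%), with an odds ratio of 2.12 (0.911 to 5.14, adjusted p = 0.322, Fisher's exact test). It was in 5.50% of all peaks, 9.29% of the weaker near-start candidates and 14.4% of the promoter windows. TGACGT was in 12 (6.12%) and 15 (5.84%), against 5.35% of all peaks, 5.31% of the weaker near-start candidates and 3.89% of the promoter windows. The GATA-type word AGATAA was in 10 (5.10%) and 11 (4.28%). Its share was 3.18% of all peaks, 6.92% of the weaker near-start candidates and 8.23% of the promoter windows. The GC content of the windows had a median of 44.6% in near-start peaks, 46.5% in the peaks farther away and 38.6% in the weaker near-start candidates.

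Genes of small non-coding RNAs were less often beside the near-start peaks than beside the more distant ones. A tRNA, snRNA or snoRNA gene lay within 200 bp of the summit in 7 of 196 near-start peaks (3.57%) and 32 of 257 of the more distant peaks (12.5%), against 11.9% of all optimal peaks. In promoters of several genes the share was 9 of 304 (2.96%), of the same order as near the start. The odds ratio was 0.261 (0.0951 to 0.62), and this was the only one of the 9 features to pass Fisher's exact test (two-sided, adjusted p = 0.00588). The near-start cases were 6 snoRNA genes, at cmtr-1, cogc-3, pcyt-2.1, Y75B12B.11, T23G11.11 and fbxl-1, and 1 tRNA gene, at K11H12.8. The more distant cases were 14 snoRNA, 13 snRNA and 5 tRNA genes. No snRNA gene lay beside a near-start peak, and a count of 0 of 196 allows a share of up to 1.53% by the limit of 3 counts, or 1.86% by the upper end of the 95% Clopper-Pearson interval. Among weaker candidates the shares were 0.594% near the start and 1.15% farther away, so the order of the positions was the same there. With the 50% of peaks of higher signal alone, the odds ratio was 0.250 and the adjusted p 0.168 by Fisher's exact test. With the strongest regions of replicate 2 alone, leaving out replicate 1, it was 0.173.

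Most near-start peaks were present in each replicate's own list. By summits no more than 100 bp apart, 195 of the 196 had a partner in replicate 1 and 189 had one in replicate 2, out of 30000 regions in each list. The 2 summits lay a median of 15.5 bp apart. Among the strongest regions of each replicate, as many as the optimal set holds, 173 (88.3%) were found in replicate 1, 144 (73.5%) in replicate 2 and 127 in both (64.8%, 57.7 to 71.5%), against 67.9% of all peaks in both. In the 4 sets of 49 ordered by pooled signal, 49, 46, 27 and 5 were in both. As the pooled reads hold both replicates, this order follows in part from the selection. Across the 188 peaks the replicates' signal values had a Spearman's rho of 0.745 and a Pearson's r of 0.826 on the log2 scale, both a description over peaks of the same pair of libraries.

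The largest differences in rank were at weak peaks. That of chat-1 ranked 1156 in replicate 1 and 25123 in replicate 2, with signal values of 57.9 and 12.7. That of scyl-1 ranked 1046 and 14233, and that of dnj-16, a DnaJ co-chaperone gene, 674 and 10843. In all 3 the peak stood far higher in the list of replicate 1. The peak of hgap-2 had no partner in replicate 1, and those of cest-32, pcf-11, rfip-1, F54D5.7, fem-2, F19B10.1 and daf-19 had none in replicate 2. The 4 peaks with the higher value in replicate 2 were those of jun-1, at 46.6 against 41.4, fbxl-1, at 50.97 against 31.0, mdt-22, at 54.9 against 52.2, and cyn-3, at 73.0 against 71.4.

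**Figure D4:**
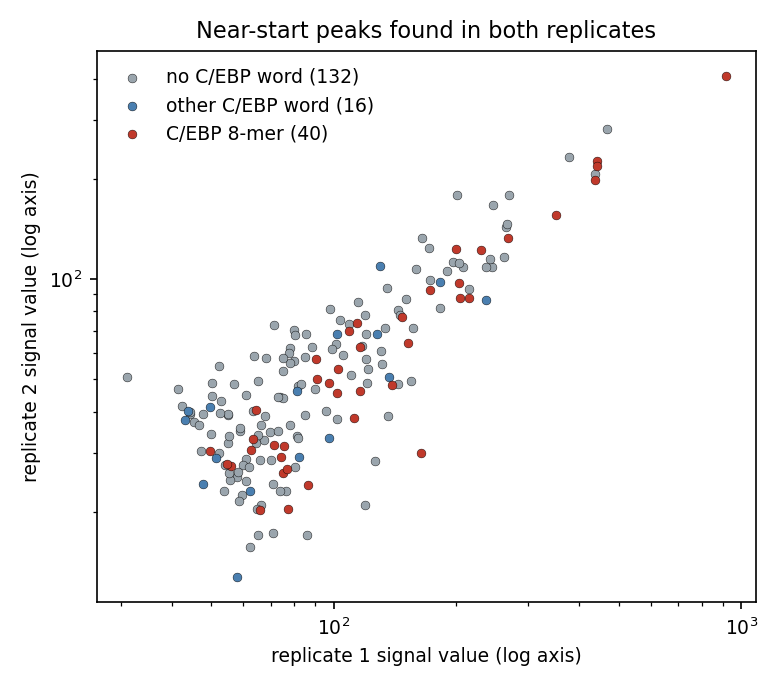
Signal value of replicate 2 against replicate 1 (both log axes) for the 188 near-start peaks with a summit within 100 bp in each, coloured by C/EBP word at the pooled summit. The point farthest to the upper right is xbp-1 at 918 and 409, and peaks with and without the C/EBP 8-mer overlapped below 468 in replicate 1.

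Of all 17242 autosomal protein-coding genes, 1.13% had a near-start peak of this kind, and 39 lists of genes were read against that share. The lists have no test here, since both members and lists were chosen with results of these data known. They were matched by gene symbol and are not complete, so each count holds for the listed genes only. Among 24 listed bZIP factors 3 had a near-start peak (12.5%). Besides xbp-1 these were atfs-1, which controls the mitochondrial unfolded protein response, and jun-1, a Jun-type factor. The peak of atfs-1 at chrV:14193402-14193797 stood at -63 bp, with a signal value of 128 in the pooled reads, 97.1 in replicate 1 and 33.3 in replicate 2. It held a C/EBP word other than TTGCGAAA and a GA repeat. The peak of jun-1 at chrII:9112825-9113220 stood at -134 bp, with a pooled signal value of 96.0, and held no C/EBP word. Both were well below xbp-1. Outside the list, the bZIP gene let-607 also had a near-start peak, at -3 bp with a pooled signal value of 206. That peak held no C/EBP word.

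Genes of protein folding and turnover had several weaker peaks. Of 18 genes of endoplasmic reticulum stress and folding 2 had one (11.1%), xbp-1 and ire-1. The latter encodes the kinase and endoribonuclease that splices xbp-1 mRNA, and its peak at -168 bp had a value of 88.9 in the pooled reads, 59.6 in replicate 1 and 22.4 in replicate 2. Of 54 heat shock proteins and co-chaperones 4 had one (7.41%). These were unc-23 (a BAG-domain co-chaperone, pooled signal value 211), bag-1 (another, 206), sti-1 (a co-chaperone linking Hsp70 and Hsp90, 145) and dnj-16 (108). The proteasome had 1 of 33, the lid deubiquitinase rpn-11 (175). Ubiquitin conjugation had 2 of 46, the polyubiquitin gene ubq-1 (145), whose summit held TTGCGAAA, and ubc-25 (90.0). In autophagy 1 of 25 had one, lgg-1, an Atg8 protein that coats autophagosomes, at 247 and with TTGCGAAA.

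In RNA processing, 5 of 55 listed splicing genes had a near-start peak (9.09%). Their pooled signal values were 271 at hrpu-2, 176 at snrp-3 (a core snRNP protein), 164 at hrpu-1, 164 at hrpk-1 and 87.3 at hrpa-1 (an hnRNP A1-type protein). None of the 3 strongest of these held a C/EBP word. With a limit of 100 bp 1 of the 5 was left, and with 300 bp the count from the list was 6. The splicing genes smu-1 (270 at -22 bp) and rbm-39 (194 at 8 bp) also had near-start peaks but were outside the list. Nuclear pore and transport genes had 2 of 40, npp-18 (104.4) and npp-20 (92.2).

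Genes of translation and respiration had peaks at differing positions. Of 79 genes listed by name as cytosolic ribosomal proteins, 38 (48.1%) had some autosomal promoter peak, but only rpl-24.2 had one near its start as a single gene (1.27%). The gene rpl-24.2 was counted by its name, and whether its product is part of the mature ribosome was not examined. Another 9 of the list had a more distant single-gene peak and 28 had one in a promoter of several genes. Of all autosomal protein-coding genes, 5.92% had some promoter peak. For a more distant single-gene peak that share was 1.41%, and for a promoter of several genes 3.52%. Of the 9, those of ubl-1, rpl-41.2, rps-4, rpl-3, rps-24 and rps-21 lay between -222 and -289 bp. A limit of 300 bp instead of 200 bp thus gave 7 genes of the list, rpl-24.2 included. The strongest of them was rpl-3, at -281 bp with a signal value of 1171.7. Mitochondrial ribosomal proteins had 3 of 70 near the start (4.29%), namely mrpl-28 at 343, mrpl-55 at 176 and mrpl-47 at 84.8. The respiratory chain and ATP synthase had 3 of 64, namely cox-5B (a cytochrome c oxidase subunit, 229), nduf-11 (141, a subunit of complex I) and ndus-8 (109, likewise). Translation factors had 2 of 41, eif-2beta at 107, with TTGCGAAA, and eif-2Bdelta at 100.3.

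**Figure D5:**
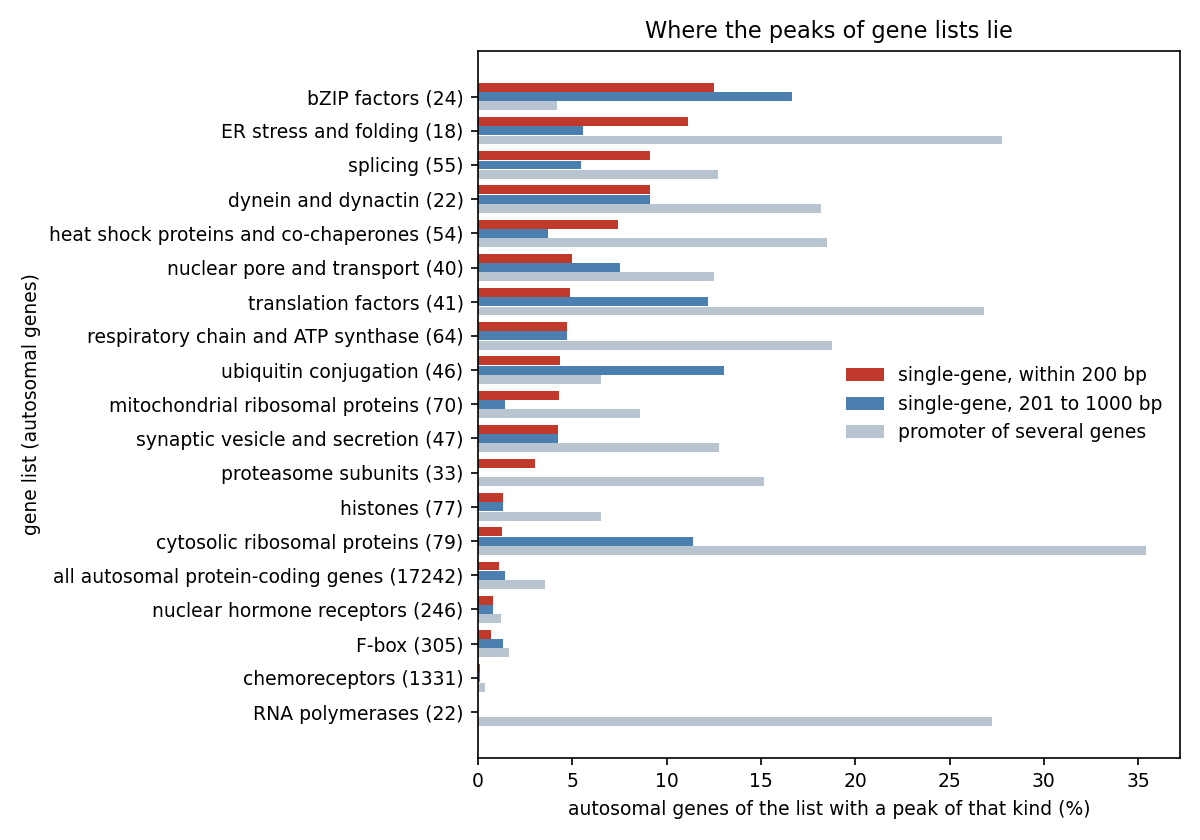
Percentage of the autosomal genes of each list with a near-start single-gene peak (red), a more distant single-gene peak (blue) or a peak in a promoter of several genes (grey), for lists with at least 5 such genes in all and, for reference, all autosomal protein-coding genes. Cytosolic ribosomal proteins stood at 1.27%, 11.4% and 35.4%, and bZIP factors at 12.5%, 16.7% and 4.17%.

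Transport and secretion genes were also present. Dynein and dynactin had 2 of 22 (9.09%), both of dynactin. The peak of arp-1, the actin-related protein of its filament, had a value of 284 in the pooled reads, 204 in replicate 1 and 87.7 in replicate 2, and held TTGCGAAA. That of dnc-3 had 184. Synaptic vesicle and secretion genes had 2 of 47, sec-24.1 (a COPII coat protein, 227) and egl-21 (a carboxypeptidase that trims neuropeptide precursors, 83.7), and egl-21 was also the 1 gene found among 20 neuron markers.

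By their listed members, large gene families were near or below the background of 1.13%. Chemoreceptors had 1 of 1331, srh-2 at 137, and nuclear hormone receptors had 2 of 246, nhr-56 at 180 and nhr-117 at 179, both with TTGCGAAA. Listed F-box genes had 2 of 305, fbxa-144 at 88.8 and fbxa-63 at 80.9. The F-box genes fbxl-2 (314), sel-10 (117) and fbxl-1 (84.7) also had near-start peaks but were outside that list. Detoxification genes had 2 of 171, cyp-33C8 (a cytochrome P450) at 156 and gst-5 (a glutathione transferase) at 117, and histones had 1 of 77, his-37. No near-start peak was found at the 237 C-type lectins, 145 collagens, 76 genes of fasting and fat metabolism, 70 neuropeptides, 45 homeobox genes, 37 insulin-like peptides or 32 aminoacyl-tRNA synthetases. None was found either at the 22 genes of the nucleolus and snoRNPs, 22 of RNA polymerases, 21 of insulin signalling, 18 of the vacuolar ATPase, 16 of innate immunity, 8 of the chaperonin CCT, the 1 autosomal 14-3-3 gene, or the markers of body wall muscle (16), intestine (13), hypodermis (17), pharynx (20) and germline (39). At a background of 1.13%, most of these lists would hold fewer than 1 such gene, so nothing is read from their zeros. Genes known only by a sequence name made up 30.9% of the 194 genes and 44.5% of all autosomal protein-coding genes.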

How the data were processed

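Peak lists of ZIP-4::EGFP ChIP-seq were analysed. Per the labels and the deposited descriptions of the files, the authors made 30000 candidate regions for each replicate and for the pooled reads, and an optimal set of 1290 peaks by the irreproducible discovery rate (IDR), all on ce11. Not given in the sources used here are the aligner, peak caller, settings, IDR threshold and depth. The authors deposited a signal value per region, whose scale is not stated, a −log10 q-value, which was 1.597 or more in every near-start peak, and another column, the summit offset from the region's start. Signal was compared within a list, or by rank. Of the labels, the antibody field says zip-4 and the description anti-GFP, which is followed here.

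Starts were those of protein-coding transcripts in Ensembl release 115 (WBcel235, the same assembly). Words were sought on either strand, no more than 50 bp from the summit, in windows of 101 bp; the more distant peaks lay 201 to 1000 bp away. Candidates sharing no base with a peak (28526 regions) were a description only. Of 9 features, each was tested between near-start and more distant peaks with a two-sided Fisher's exact test, conditional odds ratio, 95% interval and Benjamini-Hochberg adjustment at 0.05; the rest is description. Python 3.11.15, numpy 2.4.6, scipy 1.17.1, pandas 2.3.3 and matplotlib 3.10.9 were used, and the steps were tested on simulated data. No column of per-sample values was left unused (0).

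The members, the lists and all words except TATAAA were chosen with earlier results of these data known. Named were the 20 strongest near-start peaks found in both replicates (summits up to 100 bp apart) and up to 3 strongest members of each list. Also named were the 3 peaks nearest on either side of the 200 bp limit, the 3 largest rank differences and every listed bZIP gene. The other genes, among them those beside small RNA genes, those without a partner and the ribosomal protein genes farther away, were added after their values were seen.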

Additional observations from a re-analysis of the deposited data

How the results depend on the processing

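The number of near-start peaks ran from 91 to 273 over 8 alternatives, with 93 for the 50% of peaks of higher signal, 91 for a 100 bp limit and 273 for a 300 bp limit. The median distance was -98 bp from gene 5′ ends alone and -84 to -93 bp from the strongest regions of either replicate. The share of near-start peaks in both replicates was 95.9% with all regions of each replicate and 96.8% for the 50% of peaks of higher signal.

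The odds ratio of TTGCGAAA stayed above 1, from 1.03 to 1.61, over 12 alternatives (adjusted p from 0.142 to 1, Fisher's exact test). The lowest, 1.03, came without replicate 1 and was almost no difference, beside 1.47 without replicate 2. The odds ratio of the broader C/EBP word turned below 1 within 25 bp (0.954), with a 100 bp limit (0.889) and with a 300 bp limit (0.830). That of the GA repeat turned below 1 within 100 bp (0.863), against all other autosomal peaks (0.965), without peaks beside small RNA genes (0.911), with gene 5′ ends (0.747), with a 300 bp limit (0.489) and with X included (0.734). It was above 1 within 25 bp (1.59), without replicate 1 (1.67) and with a 100 bp limit (2.72, adjusted p = 0.134, Fisher's exact test). The difference in small RNA genes, whose alternatives were chosen after seeing the data, kept its direction in all 11, from 0.0950 to 0.336 (adjusted p from 0.000609 to 0.168, Fisher's exact test), with 0.173 without replicate 1 and 0.264 without replicate 2. It missed the threshold in the 50% of peaks of higher signal alone (0.250, with fewer peaks). The cause of these changes, this miss included, was not tested. No paired analysis was possible because there was 1 group. The unknown depth limits all counts of weak peaks, and the absence of an untagged control limits what the strong ones can be set against.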

Other observations

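Several cytoskeletal genes outside the lists had near-start peaks with TTGCGAAA, and they were picked after their values were seen, so no count is drawn from them. Near-start peaks of related genes lacked the word, as at unc-16, dnc-3 and cls-2 (pooled signal values 227, 184 and 85.7). The tba-2 peak at -11 bp (321) lacked it too. The beta-tubulin gene tbb-6 had a pooled signal value of 210, with 152 in replicate 1 and 64.3 in replicate 2, at 42 bp. The gene zyg-9, whose product is a microtubule-associated protein of the XMAP215 family, had 189 at -191 bp. The peak of unc-14, a RUN-domain gene that acts with kinesin in axonal transport, had 157 at -103 bp, and that of the alpha-tubulin gene mec-12 had 87.1 at -123 bp. The chromatin gene nurf-1 had 2 near-start peaks at different starts, with pooled signal values of 94.8 at -50 bp, which held TTGCGAAA, and 90.1 at -29 bp, which held a GA repeat.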
